A study of Mus musculus with 8 samples.

Results

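The 10 genes described here encode 8 lysosomal cathepsins (Ctss, Ctsb, Ctsd, Ctsl, Ctsz, Ctsk, Ctsc and Ctsh), the lysosomal protease legumain (Lgmn) and the protease inhibitor cystatin C (Cst3). They were found by matching the Ensembl identifiers of the deposited table to gene symbols. All 10 were found among 37991 genes, and all 10 passed the filter on low counts, which kept 12466 genes for testing. The set was built around Ctss, whose difference between the groups was already known from these 8 libraries, and it places proteases known mainly from leukocytes beside proteases that most cells make. The comparison of the groups had therefore already been used to choose the genes, so their own values are given as a description without a test.

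Cells came from hearts of mice with alpha-MHC MERCREMER, a Cre recombinase switched on by tamoxifen and driven by a heart muscle promoter, and with MADM, a reporter in which recombination between homologous chromosomes and a division can separate 2 fluorescent colors into different daughter cells. The hearts had received adenovirus with 4 cell cycle genes, and the cells, named adult cardiomyocytes in the labels, were isolated 2 weeks later. Single colored cells (4 libraries) are cells that the labels describe as having completed a cell cycle, and double colored cells (4 libraries) received the same factors but are described as not having done so. Both groups share the transgenes and the virus, so no value here compares injected with uninjected hearts. No age is given, nor whether the 4 replicates of a group are separate animals. The p-values thus rest on the spread among libraries, which may be partly technical.

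Cathepsins are made as inactive precursors that become active in the acid of endosomes and lysosomes, where they degrade proteins delivered by endocytosis, phagocytosis or autophagy. Most are cysteine proteases of the papain family, whereas cathepsin D is an aspartic protease and legumain a cysteine protease of another family that cuts after asparagine. Cathepsin S is known mainly from antigen-presenting cells, where it trims the invariant chain from major histocompatibility complex (MHC) class II, cathepsin K from osteoclasts, and cathepsin C from immune cells, whose granule serine proteases it activates. Cystatin C is a secreted inhibitor of papain-family cathepsins and is made by nearly all cells.

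The libraries held 23820700 to 30082278 counted reads. Mitochondrially encoded genes took 77.5% to 85.9% of them in single colored libraries and 84.2% to 88.3% in double colored libraries, which left 3750616 to 6112595 and 3503353 to 3850391 nuclear-encoded reads. Levels are read counts per 1000000 counted reads (CPM) scaled by TMM factors, which adjust for differences in composition between libraries. All 10 cardiomyocyte markers were read in every group, with a summed level of 12418 to 23549 CPM in single colored and 19488 to 26958 CPM in double colored libraries. Markers of other cells were present in the same libraries. The summed level of 17 macrophage markers was 202 to 333 CPM in single colored and 139 to 189 CPM in double colored libraries, with no marker at 0 and no overlap between the groups. That of 12 lymphocyte markers was 16.7 to 33.2 CPM in single colored and 1.67 to 4.77 CPM in double colored libraries, with no overlap between the groups. The part of these markers in the values of the 10 genes was not tested. In bulk RNA fewer cells of a type and less RNA per cell cannot be told apart.

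Ctss was the member with the largest difference. It stood at 93.0, 68.1, 50.9 and 68.1 CPM in single colored replicates 1 to 4, against 15.8, 18.6, 11.8 and 10.5 CPM in double colored replicates 1 to 4. The lowest single colored library lay far above the highest double colored one. The single colored mean was 70.0 ± 17.3 CPM against a double colored mean of 14.2 ± 3.73 CPM (SD, n = 4 each), a fold of 4.94 and a log2 fold change of 2.30 ± 0.21 (SE). Within the 4 numbered pairs of libraries the log2 difference ran from 1.86 to 2.69. Leaving out each library in turn gave a log2 fold change between 2.13 (single colored replicate 1 omitted) and 2.46 (double colored replicate 2 omitted). In raw reads Ctss had 1717 to 3550 per single colored library and 251 to 410 per double colored library, so counting error is small beside the spread between libraries.

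**Figure D1:**
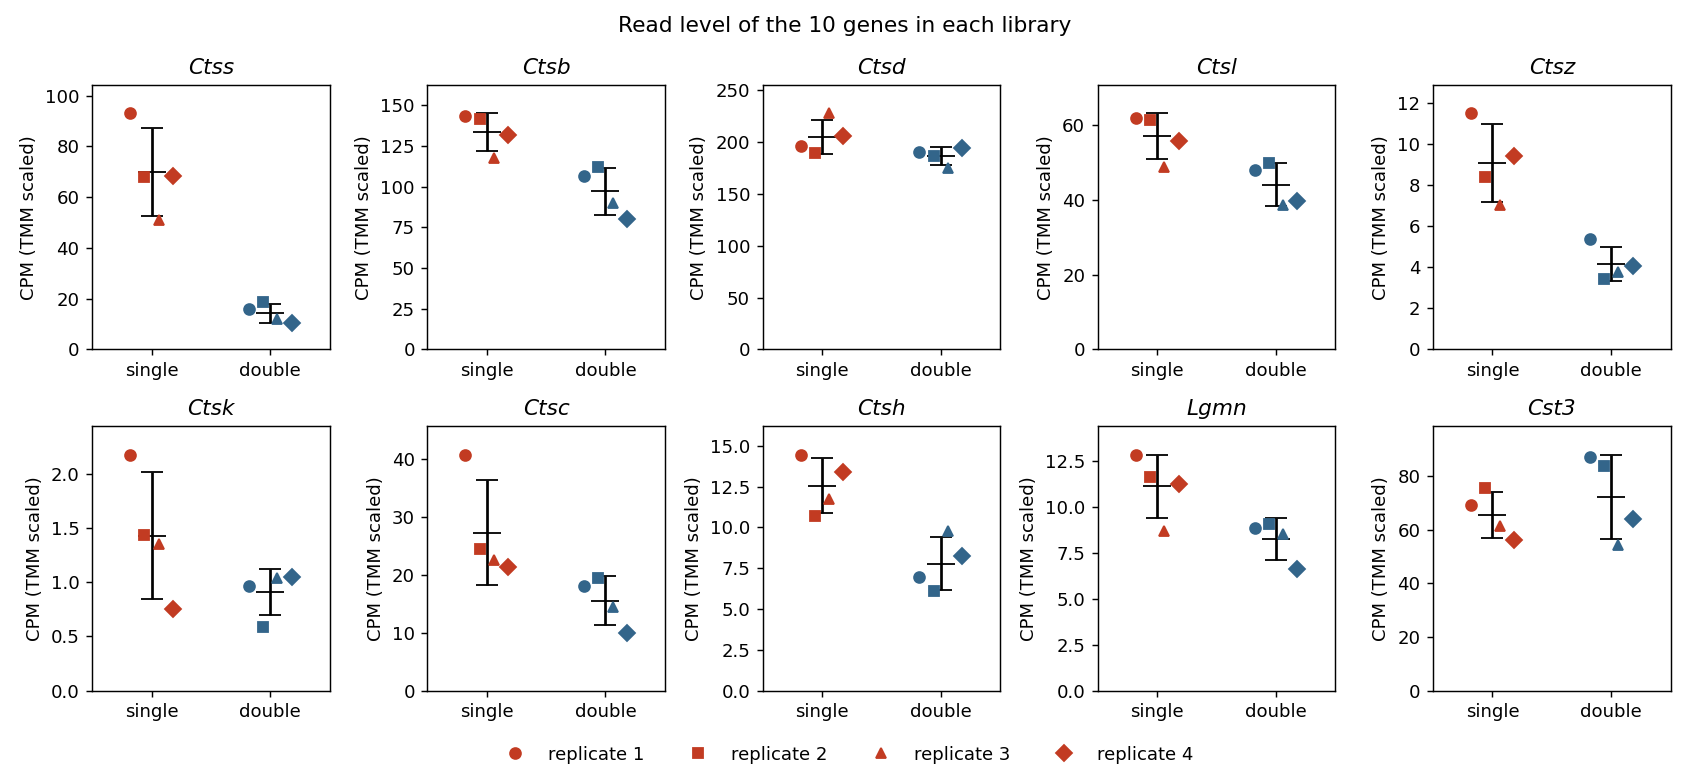
Level of each of the 10 genes in CPM (TMM scaled, linear axes from 0) in the 4 single and 4 double colored libraries. Red is single and blue double colored, symbols give the replicate number, and the bar and whiskers give mean ± SD. Ctss shows the widest gap, 70.0 against 14.2 CPM, while Ctsd and Cst3 overlap between the groups.

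Ctss (ENSMUSG00000038642, mm9 chromosome 3, 95330708 to 95360325, plus strand) has Ctsk (95303208 to 95313284, plus strand) as its neighbor, with a gap of 17423 bases and no other gene of the table lying wholly in it. Cathepsin K is known mainly from osteoclasts, which use it to digest bone collagen. Ctsk was the least abundant member, at 2.17, 1.43, 1.35 and 0.754 CPM in single colored replicates 1 to 4 and 0.963, 0.591, 1.04 and 1.04 CPM in double colored replicates 1 to 4. Single colored replicate 4 lay below 3 of the double colored libraries, so the groups overlapped. The log2 fold change of Ctsk was 0.66 ± 0.39 (SE), positive in 3 of 4 pairs, and it was 0.37 without single colored replicate 1. Per library it rested on 19 to 83 reads in single and 13 to 25 reads in double colored cells. In RPKM, which is CPM per kilobase of exon, the level of Ctss over that of Ctsk was 59.6 ± 26.4 in single and 18.9 ± 10.8 in double colored cells (SD, n = 4 each).

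Sequences upstream of the genes were read from RefSeq (GRCm38.p6, a different build from the mm9 of the read counts), as windows of 250 bases before and 50 bases after the annotated start. Windows were found for 8 of the 10 genes, all but Ctsb and Ctsh, and Lgmn has 2, which makes 9. The pair shown is that of Ctss, the member with the widest gap, and of Ctsd, an abundant member whose groups overlap. Capitals mark matches to any of 4 motifs, each searched on both strands: CACGTG, the E-box, TCACGTGAC, the core of the element bound by the lysosomal regulator TFEB, which contains the E-box, GAGGAAGT, a form bound by ETS factors such as the myeloid regulator PU.1, and a form of the interferon-stimulated response element made of GAAA, any 2 bases and GAAA again.
Ctss, chr3:95526536-95526835, plus strand: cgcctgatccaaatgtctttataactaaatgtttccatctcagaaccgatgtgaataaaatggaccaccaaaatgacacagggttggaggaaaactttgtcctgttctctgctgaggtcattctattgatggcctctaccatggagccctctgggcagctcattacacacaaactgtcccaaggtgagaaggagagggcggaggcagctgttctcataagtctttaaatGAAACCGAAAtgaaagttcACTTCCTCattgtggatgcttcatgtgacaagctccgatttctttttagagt
Ctsd, chr7:142387778-142388077, minus strand: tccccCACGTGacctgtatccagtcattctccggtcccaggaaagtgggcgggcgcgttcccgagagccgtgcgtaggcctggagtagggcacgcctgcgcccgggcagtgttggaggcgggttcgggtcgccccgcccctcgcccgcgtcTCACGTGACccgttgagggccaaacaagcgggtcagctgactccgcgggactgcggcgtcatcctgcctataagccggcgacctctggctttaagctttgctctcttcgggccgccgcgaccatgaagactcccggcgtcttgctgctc

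The Ctss window held the interferon form, with its first base at position -21 from the start, and the ETS form on the opposite strand, with its first base in the printed strand at -2, where its letters read ACTTCCTC. It held no E-box. The Ctsd window held 2 E-boxes, at -245 and -98, and the one at -98 lies inside the TFEB form. Among the other windows, an E-box was found at -236 of Ctsl and at -49 of 1 of the Lgmn starts, and the ETS form at -151 of Ctsc. The windows of Ctsz, Ctsk and Cst3 and the other Lgmn window held none of the 4. Of 32851 such windows over mouse genes outside chromosome 18, 7.15% held the E-box, 0.782% the TFEB form, 3.2% the ETS form and 3.44% the interferon form. These are matches of letters and say nothing of binding in these cells.

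Ctsz, Ctsc and Ctsh encode exopeptidases, which trim proteins from their ends, and stood next after Ctss by log2 fold change. Ctsz (ENSMUSG00000016256, mm9 chromosome 2, 174252994 to 174264540) is a carboxypeptidase abundant in monocytes and macrophages. It had 11.5, 8.41, 7.03 and 9.41 CPM in single colored replicates 1 to 4, against 5.36, 3.45, 3.76 and 4.05 CPM in double colored replicates 1 to 4. The groups did not overlap, and the log2 fold change was 1.13 ± 0.21 (SE), a fold of 2.18. The pairs were alike, with log2 differences of 0.89 to 1.27.

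Ctsc (ENSMUSG00000030560, chromosome 7, 95426595 to 95459398) had 40.8, 24.5, 22.6 and 21.4 CPM in single colored replicates 1 to 4, against 18.2, 19.5, 14.4 and 10.03 CPM in double colored replicates 1 to 4. The single colored group was set apart by replicate 1, and its other 3 libraries lay close above the highest double colored one. The log2 fold change was 0.82 ± 0.23 (SE), with pairs from 0.33 to 1.17, and it was 0.55 without single colored replicate 1. Ctsh (ENSMUSG00000032359, chromosome 9, 89948990 to 89970927), an aminopeptidase, had 14.5, 10.7, 11.7 and 13.4 CPM in single colored replicates 1 to 4, against 6.95, 6.09, 9.81 and 8.23 CPM in double colored replicates 1 to 4. The groups were separated by less than 1 CPM, between single colored replicate 2 and double colored replicate 3. Its log2 fold change was 0.69 ± 0.18 (SE), with pairs from 0.26 to 1.05.

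Ctsb and Ctsl encode the abundant endopeptidases that most cells use for bulk degradation, and mice without cathepsin L develop a dilated cardiomyopathy. Ctsb (ENSMUSG00000021939, chromosome 14, 63741302 to 63764758) had 143, 141, 118 and 132 CPM in single colored replicates 1 to 4, against 106, 112, 89.9 and 80.03 CPM in double colored replicates 1 to 4. The groups did not overlap, and the log2 fold change was 0.46 ± 0.16 (SE). Of the exon bases of Ctsb, 16.2% are shared with Fdft1 on the other strand, where reads of the genes cannot be told apart unless counting used strand, and Fdft1 itself had 307 reads in all single and 333 in all double colored libraries against 1915 to 5460 reads of Ctsb in each. Ctsl (ENSMUSG00000021477, chromosome 13, 64464522 to 64471614) had 61.9, 61.4, 48.7 and 55.8 CPM in single colored replicates 1 to 4, against 48.0, 49.7, 38.5 and 39.6 CPM in double colored replicates 1 to 4. The groups overlapped by single colored replicate 3 and double colored replicate 2. Its log2 fold change was 0.37 ± 0.15 (SE), and all 4 pairs were positive, from 0.30 to 0.49.

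Lgmn (ENSMUSG00000021190, chromosome 12, 103632294 to 103678023), which cuts after asparagine and converts several cathepsins from their single-chain to their 2-chain form, had 12.8, 11.7, 8.72 and 11.3 CPM in single colored replicates 1 to 4. It had 8.88, 9.09, 8.56 and 6.60 CPM in double colored replicates 1 to 4. Single colored replicate 3 lay below double colored replicates 1 and 2, and the log2 fold change was 0.43 ± 0.18 (SE), with pairs from 0.03 to 0.77.

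Ctsd and Cst3 were the members with the smallest differences. Ctsd (ENSMUSG00000007891, chromosome 7, 149557053 to 149573943), the main aspartic protease of lysosomes, had 196, 190, 228 and 206 CPM in single colored replicates 1 to 4, against 190, 186, 175 and 194 CPM in double colored replicates 1 to 4. The groups overlapped, and the log2 fold change was 0.13 ± 0.15 (SE), with 0.07 when single colored replicate 3 was left out. Cst3 (ENSMUSG00000027447, chromosome 2, 148697458 to 148701428) had 69.2, 75.7, 61.5 and 56.04 CPM in single colored replicates 1 to 4, against 87.1, 83.9, 54.4 and 63.9 CPM in double colored replicates 1 to 4. It was the only member with a negative log2 fold change, −0.14 ± 0.17 (SE). Its groups overlapped, it was lower in single colored cells in 3 of 4 pairs, and leaving out each library in turn moved its log2 fold change between −0.26 (double colored replicate 3 omitted) and −0.04 (double colored replicate 1 omitted). With scaling by library totals alone the median of all genes shifted by 0.49, so that Cst3 stood at 0.37 and Ctsd at 0.63 on that scale, below and above the shift.

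**Figure D2:**
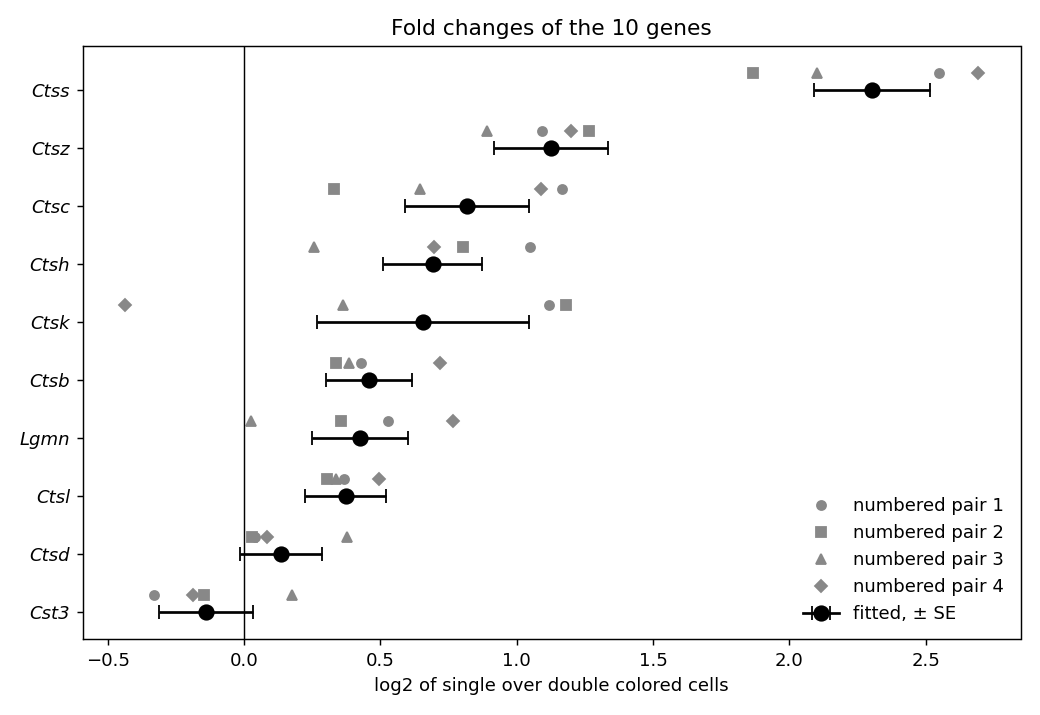
Log2 fold change of single over double colored cells for each of the 10 genes. Black points give the fitted value ± SE, and gray symbols give the log2 difference within each numbered pair of libraries. Ctss lies at 2.30, apart from Ctsz at 1.13, and Cst3 is the only gene with a fitted value below 0.

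Across the 10 genes, 9 log2 fold changes were positive and the median was 0.56, beside −0.01 over all 12466 tested genes, of which 49.4% were positive. The 4 numbered pairs were all higher in single colored cells for 8 members, which held for 14% of all tested genes. The groups did not overlap for 5 members, Ctss, Ctsz, Ctsc, Ctsh and Ctsb, with single colored cells higher, against 5.37% of all tested genes. The threshold used for other genes below, an edgeR adjusted p under 0.05, was passed by 2.48% of tested genes and by 2 of the 10, Ctss and Ctsz. With the replicate number as a block 5 members passed, with Ctsc, Ctsh and Ctsb added, as did 7.53% of all tested genes. Since the genes were picked from this comparison, nothing is read from these shares. The authors' deposited table gives log2 fold changes of double over single colored cells, the opposite direction, of −2.29 for Ctss, −1.12 for Ctsz and 0.15 for Cst3. None of its 15711 genes with an FDR had one under 0.05.

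Single colored replicate 1 was the highest library of its group for 8 of the 10 genes, all but Ctsd and Cst3, and single colored replicate 3 the lowest for 5. In double colored cells replicate 2 was the highest for 5 and replicate 4 the lowest for 4. Single colored replicate 1 also had the highest summed macrophage markers of all libraries, 333 CPM, and the lowest summed cardiomyocyte markers, 12418 CPM. Its summed fibroblast markers were 1862 CPM, against 634 to 1056 CPM in the other single colored libraries and 311 to 752 CPM in the double colored ones. The part of that library's makeup in these values was not tested. Without it the log2 fold change went from 2.30 to 2.13 for Ctss and from 1.13 to 0.98 for Ctsz. It went from 0.82 to 0.55 for Ctsc and from 0.66 to 0.37 for Ctsk, and the median of the 10 genes went from 0.56 to 0.39.

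Levels of different genes are compared per length, in RPKM, which is lowered for genes whose annotated exons include rarely used ones. In single colored cells Ctsd led with 81.3 ± 6.62 RPKM, followed by Cst3 with 51.8 ± 6.81, Ctss with 51.6 ± 12.8, Ctsl with 28.8 ± 3.12 and Ctsb with 28.1 ± 2.47 RPKM (SD, n = 4). Cst3 and Ctss did not differ beyond their spread, with Ctss above Cst3 in replicates 1 and 4 and below it in replicates 2 and 3, and neither did Ctsl and Ctsb. Then came Ctsz with 6.31 ± 1.31, Lgmn with 4.79 ± 0.747, Ctsc with 4.72 ± 1.57 and Ctsh with 3.64 ± 0.488 RPKM, whose ranges overlapped from neighbor to neighbor, and Ctsk with 0.964 ± 0.393 RPKM.

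In double colored cells Ctsd also led, with 74.0 ± 3.33 RPKM, before Cst3 with 57.1 ± 12.4, Ctsl with 22.3 ± 2.90 and Ctsb with 20.5 ± 3.10 RPKM (SD, n = 4). Ctss stood after these, at 10.4 ± 2.75 RPKM, below Ctsb in all 4 libraries. Lgmn with 3.56 ± 0.491, Ctsz with 2.88 ± 0.582, Ctsc with 2.68 ± 0.733, Ctsh with 2.25 ± 0.469 and Ctsk with 0.613 ± 0.145 RPKM closed the order. Ranges overlapped between Ctsl and Ctsb, and from neighbor to neighbor between Lgmn and Ctsh. Within libraries Ctsl lay above Ctsb in all 4, and Lgmn above Ctsz in all 4. The position of Ctss thus lay beside Cst3 in single colored cells and between Ctsb and Lgmn in double colored cells.

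Ctss made up 23.7%, 18.9%, 15.4% and 19.9% of the summed RPKM of the 10 genes in single colored replicates 1 to 4, against 5.39%, 6.40%, 5.05% and 4.23% in double colored replicates 1 to 4. Its mean share was 19.5% ± 3.42 in single and 5.27% ± 0.899 in double colored cells (SD, n = 4 each). Cst3 had 17.6% to 22.5% in single colored and 25.0% to 31.8% in double colored libraries, so its share was lower in every single colored library although its level overlapped. Ctsb held 10.7% ± 0.477 of the sum in single and 10.4% ± 0.840 in double colored cells, and Ctsd 31.3% ± 4.63 in single and 38.0% ± 3.90 in double colored cells. The sum itself was 262 ± 20.0 RPKM in single and 196 ± 22.3 RPKM in double colored cells. The summed RPKM of the 7 papain-family members over that of Cst3 was 2.76, 2.09, 2.06 and 2.73 in single colored replicates 1 to 4, and 0.988, 1.06, 1.30 and 1.04 in double colored replicates 1 to 4.

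**Figure D3:**
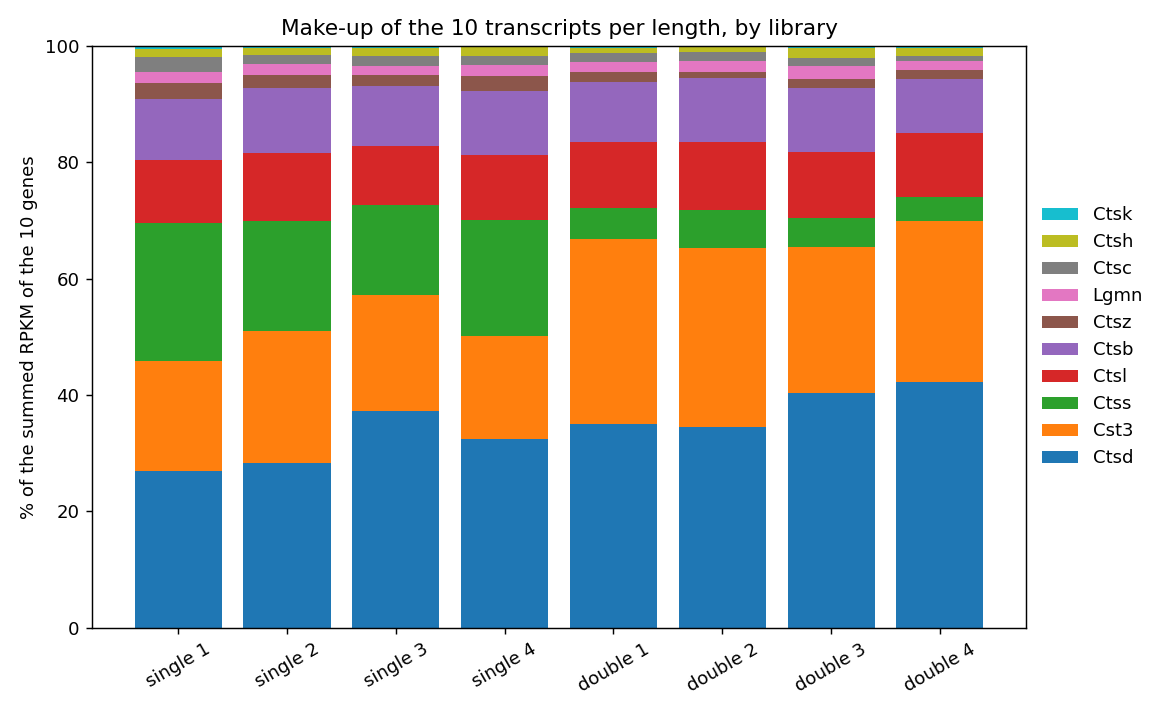
Share of each gene in the summed RPKM of the 10 genes (percent, stacked) in the 4 single and 4 double colored libraries. The Ctss segment covers 15.4% to 23.7% in single and 4.23% to 6.40% in double colored libraries.

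Likeness of profiles was measured as the root mean square difference of log2 CPM over the 8 libraries, after centring each gene on its own mean. Among tested genes outside the members, predicted genes and small RNAs, the 5 most like Ctss were Ms4a6d with a difference of 0.27, Lax1 with 0.33, Soat1 with 0.34, Ifi209 with 0.34 and Mpeg1 with 0.35. They all share the gap between the groups, which follows from choosing them by likeness to Ctss. Lax1, Ifi209 and Ms4a6d had only 17, 44 and 74 reads in all double colored libraries. Mpeg1, which encodes the pore-forming protein perforin-2 of macrophages, stood at 49.4, 27.9, 24.8 and 24.3 CPM in single colored replicates 1 to 4, against 9.13, 8.59, 10.07 and 5.39 CPM in double colored replicates 1 to 4. Soat1, which esterifies cholesterol, averaged 6.51 ± 1.89 CPM (SD) in the single colored libraries and 1.51 ± 0.757 CPM in the double colored ones. The member nearest to Ctss was Ctsz, at 0.66, with 221 tested genes nearer. Ctsb and Ctsl were the closest pair among the members, at 0.07, and Lgmn lay 0.10 from Ctsb. These are descriptions over 8 libraries that share their 2 groups.

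The other lysosome genes were taken from 8 lists, chosen like the 10 genes with earlier results of these data known. Of 116 tested genes on them, 12 rose and none fell (edgeR quasi-likelihood test, adjusted p under 0.05 over all tested genes), where 2.32% of all tested genes rose and 0.16% fell (289 and 20 genes, against 463 and 94 with DESeq2 and its size factors, 619 and 320 with the replicate block and 1389 and 1 with scaling by library totals alone). In what follows means are given ± SD and log2 fold changes (LFC) ± SE, with n = 4 per group. Their median log2 fold change was 0.24. The 12 calls depended on single libraries: without single colored replicate 1 there were 2 (Acp5 and Cstb), without double colored replicate 3 there were 6, and without double colored replicate 4 there were 5. Calls over all tested genes also fell in these omissions, from 309 to 142, 210 and 134. All 12 were kept with DESeq2 and with the replicate block, each of which called 16 genes of these lists. Of the 12, Acp5 and Serpina3g met the low-count filter in all 4 single colored libraries but not in all 4 double colored ones (0 and 3), so they were tested because they are high in single colored cells.

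**Figure D4:**
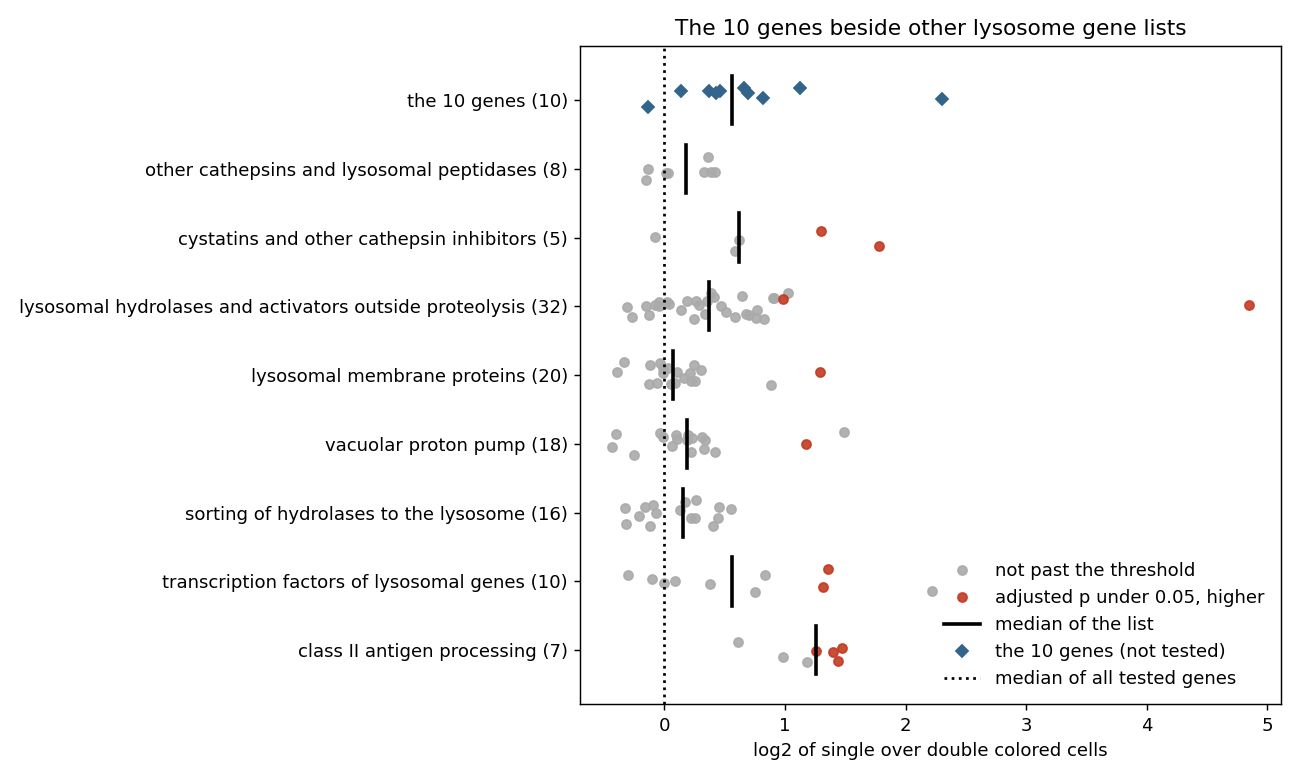
Log2 fold change of single over double colored cells for every tested gene of 8 lysosome lists, with the 10 genes on top as diamonds and the number of tested genes in parentheses. Black bars mark list medians and the dotted line the median of all tested genes, −0.01. The class II list has the highest median, 1.26, and lysosomal membrane proteins the lowest, 0.07. Red marks genes past the threshold, and the red point farthest right is Acp5, whose fitted value rests on 3 reads in the double colored libraries.

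Among other cathepsins and lysosomal peptidases, none of 8 tested genes passed with edgeR, 1 had an unadjusted p under 0.05, beside 15.1% of all tested genes, and the median LFC was 0.18. That gene was Ctsa, the protective protein of lysosomal sialidase, at 21.9 ± 3.33 CPM in the single colored group against 16.8 ± 2.62 CPM in the double colored group (LFC 0.39 ± 0.16, edgeR adjusted p = 0.254). Of Ctsa exons, 10.5% are shared with Pltp on the other strand, a gene with 409 reads in all single and 214 in all double colored libraries. Prcp, Scpep1 and Cpq had LFC values of 0.42, 0.33 and −0.13 (edgeR adjusted p = 0.449, 0.690 and 0.814). Cpq stood at 0.36 with scaling by library totals alone, below the shift of 0.49. DESeq2, which tested 10 of the list, called Ctsw, a cathepsin of cytotoxic lymphocytes with 117 reads in all single and 11 in all double colored libraries, too few for the edgeR filter. With edgeR it passed with no filter, without single colored replicate 4 and on omission of double colored replicate 2. With so few double colored reads, Ctsw could enter the filtered fits only through the single colored group, where it is high. These calls of Ctsw, that of DESeq2 included, therefore support nothing. Ctsg, a protease of neutrophil granules, had 0 reads in every library.

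Of 21 listed cystatins and other cathepsin inhibitors 5 were tested, and 2 rose, where 2.32% of all tested genes rose. Cstb, which encodes the cytosolic inhibitor cystatin B, had 5.63 ± 1.42 CPM in the single colored group against 2.28 ± 0.707 CPM in the double colored group (LFC 1.30 ± 0.27, edgeR adjusted p = 0.0156). It lost its call without single colored replicate 4 or double colored replicate 4 (adjusted p up to 0.0648). Serpina3g, a serpin that inhibits cathepsins in lymphocytes, had an LFC of 1.78 ± 0.40 (edgeR adjusted p = 0.0249), and its call was lost when single colored replicate 1 or 4 or double colored replicate 1, 2 or 3 was left out (up to 0.106). Serpina3g met the low-count filter in 4 single but only 3 double colored libraries, so its call supports nothing. Ctla2a and Ctla2b, which resemble the propeptide of cathepsins, had 0.62 and 0.58 (edgeR adjusted p = 0.197 and 0.484). Cst7, the inhibitor of cathepsin C and other family members in lymphoid and myeloid cells, was not tested, with 17 reads in all single and 9 in all double colored libraries.

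Of 32 tested lysosomal hydrolases and activators outside proteolysis 2 rose, and the median was 0.37. Positive log2 fold changes were found for 25, where 49.4% of all tested genes were positive. Acp5, Naglu, Galns and Pla2g15, which are among the 25, met the low-count filter in fewer double than single colored libraries, so their signs support nothing. Npc2, which hands cholesterol out of the lysosome, had 14.0 ± 2.60 CPM in the single colored group against 7.10 ± 1.93 CPM in the double colored group (LFC 0.98 ± 0.21, edgeR adjusted p = 0.0170). It lost its call without single colored replicate 1 or 4 or double colored replicate 3 or 4 (up to 0.0783). Acp5, the acid phosphatase of osteoclasts and macrophages, also passed (edgeR adjusted p = 0.00382), with 1.05 ± 0.603 CPM in single colored cells and 3 reads in all double colored libraries together. It entered the test only through the single colored group, where it is high, so its call supports nothing. Gm2a and Gusb had LFC values of 0.82 and 0.77 (edgeR adjusted p = 0.0632 and 0.164), and both passed with the replicate number as a block (0.0167 and 0.0250). Gm2a also passed with DESeq2 and without single colored replicate 3.

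Of 20 tested lysosomal membrane proteins 1 rose, Laptm5, a lysosomal protein of blood cells, with 18.7 ± 4.33 CPM in the single colored group against 7.67 ± 3.34 CPM in the double colored group (LFC 1.29 ± 0.27, edgeR adjusted p = 0.0217). Cln3, Cd68 and Cd63 had 0.89, 0.31 and 0.25 (edgeR adjusted p = 0.199, 0.488 and 0.573), and 7.65% of the exon bases of Cln3 are shared with Apobr on the other strand. Apobr had 142 reads in all single and 25 in all double colored libraries, against 326 and 129 for Cln3. Laptm5 lost its call without single colored replicate 1 or double colored replicate 3 and with the filter at 5 CPM (up to 0.0881). Of 18 tested subunits of the vacuolar proton pump, which acidifies the lysosome, 1 rose. It was Tcirg1, the subunit best known from osteoclasts, with 7.83 ± 2.80 CPM in the single colored group against 3.47 ± 0.939 CPM in the double colored group (LFC 1.18 ± 0.27, edgeR adjusted p = 0.0253). It lost its call without single colored replicate 1 or double colored replicate 1, 3 or 4 (up to 0.104). Atp6v0d2, Atp6v1a and Atp6v0e had 1.49, 0.33 and 0.42 (edgeR adjusted p = 0.356, 0.394 and 0.442). Atp6v0d2 had 92 reads in all single and 25 in all double colored libraries. It met the low-count filter in 3 single but only 1 double colored library, so its value supports nothing.

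None of 16 tested genes that sort hydrolases to the lysosome passed, with edgeR or with DESeq2. An unadjusted p under 0.05 in edgeR was found for 2, beside 15.1% of all tested genes. Gnptab, which makes the mannose 6-phosphate tag, had 17.3 ± 1.94 CPM in the single colored group against 12.8 ± 0.460 CPM in the double colored group (LFC 0.44 ± 0.14, edgeR adjusted p = 0.127). M6pr, a receptor of that tag, had 0.46, Gga3 0.40 and Nagpa 0.55 (edgeR adjusted p = 0.280, 0.454 and 0.459).

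Of 10 tested transcription factors linked to lysosomal genes 2 rose. Spi1, which encodes PU.1, had 2.26 ± 0.360 CPM in the single colored group against 0.903 ± 0.0428 CPM in the double colored group (LFC 1.32 ± 0.30, edgeR adjusted p = 0.0261). Ciita, the switch of MHC class II genes, had 5.22 ± 2.23 CPM in the single colored group against 2.04 ± 0.692 CPM in the double colored group, with overlapping groups (LFC 1.35 ± 0.32, edgeR adjusted p = 0.0320). Spi1 lost its call when single colored replicate 1 or 2 or any double colored replicate was omitted (up to 0.0886). Ciita kept it when single colored replicate 2 was omitted and lost it in each other omission (up to 0.112). Tfec and Irf8 had 2.22 and 0.75 (edgeR adjusted p = 0.124 and 0.216), and Tfec passed with the replicate block (0.0303), with DESeq2 and without double colored replicate 1. Tfec met the low-count filter in 4 single colored libraries but in only 1 double colored library. It was tested because it is high in single colored cells, so these calls of Tfec support nothing.

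The class II pathway, in which cathepsin S acts, had the highest list median, 1.26. Of 10 listed genes 7 were tested, of which 4 rose and all 7 were positive, where 49.4% of all tested genes were positive. H2-DMb1 met the low-count filter in 4 single but only 2 double colored libraries, so its sign supports nothing. H2-DMb2, H2-Oa and H2-Ob had too few reads for the filter. H2-Ab1 had 43.1 ± 9.13 CPM in the single colored group against 15.9 ± 7.03 CPM in the double colored group (LFC 1.44 ± 0.27, edgeR adjusted p = 0.0117), and H2-Aa had 35.6 ± 10.3 CPM in single against 12.9 ± 5.69 CPM in double colored cells (LFC 1.47 ± 0.29, edgeR adjusted p = 0.0182). Cd74, the invariant chain that cathepsin S trims, had 98.3 ± 23.1 CPM in the single colored group against 37.3 ± 17.1 CPM in the double colored group (LFC 1.40 ± 0.27, edgeR adjusted p = 0.0150). Ifi30, a lysosomal thiol reductase, had 6.24 ± 2.32 CPM in the single colored group against 2.60 ± 0.440 CPM in the double colored group (LFC 1.26 ± 0.27, edgeR adjusted p = 0.0182). All 4 calls were lost without single colored replicate 1 (edgeR adjusted p up to 0.226). In that fit 5 of the 7 kept an unadjusted p under 0.05, beside 1412 of all 12637 tested genes, and the median was 1.00. Cd74 also lost its call without double colored replicate 4, and Ifi30 without double colored replicate 1, 3 or 4.

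Markers of other cells differed between the same groups. Of 17 tested macrophage markers 4 rose and 1 fell, where 2.32% of all tested genes rose and 0.16% fell. With the replicate block 9 rose and 2 fell, where 7.53% of all tested genes passed. Itgam, an integrin of myeloid cells, had 33.6 ± 4.57 CPM in the single colored group against 11.7 ± 1.90 CPM in the double colored group (edgeR adjusted p = 0.000259). Cd163, a scavenger receptor of resident macrophages, had 1.52 ± 0.431 CPM in the single colored group against 4.20 ± 1.63 CPM in the double colored group (edgeR adjusted p = 0.0240), but lost its call with scaling by library totals alone and in 5 omissions, those of single colored replicates 1 and 4 and double colored replicates 2, 3 and 4 (up to 0.0871). Of 12 lymphocyte markers 8 were tested. Cd3e, a chain of the T cell receptor complex, reached the count filter in every library and had 7.17 ± 2.88 CPM in the single colored group against 1.24 ± 0.747 CPM in the double colored group (edgeR adjusted p = 0.00272). The other 6 that passed, among them Cd3d and Cd3g with no double colored library at the filter, were tested only because they are high in single colored cells, so their number supports nothing. The 5 macrophage calls fell to 2 when single colored replicate 1 or double colored replicate 3 was omitted, and to 3 on omission of single colored replicate 4 or double colored replicate 2 or 4.

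Of 9 tested fibroblast markers 1 rose, Col1a1 (4 with the replicate block), with 288 ± 138 CPM in the single colored group against 84.9 ± 39.4 CPM in the double colored group (edgeR adjusted p = 0.0460), and it lost its call in 5 omissions, those of single colored replicates 1, 2 and 3 and double colored replicates 2 and 3 (up to 0.285), with the filter at 5 CPM and without mitochondrial genes. None of 8 endothelial, 7 smooth muscle and pericyte and 10 cardiomyocyte markers passed with edgeR. Their lists had 1, 1 and 3 genes at an unadjusted p under 0.05, beside 15.1% of all tested genes. DESeq2 called 1 endothelial marker, Fabp4, lower, and none of the other 2 lists. With the replicate block Fabp4 and 2 cardiomyocyte markers, Pln and Tnni3, passed, all lower in single colored cells. The 10 cardiomyocyte markers were all negative, where 6313 of all 12466 tested genes were negative, and their median log2 fold change was −0.45. The groups did not overlap for 3 of them, lower in single colored cells, which held for 3.76% of all tested genes. With the replicate block 8 of them had an unadjusted edgeR p under 0.05, beside 2586 of all 12466 tested genes. The summed level of 6 neutrophil markers was 1.95 to 5.0 CPM in single colored and 0.669 to 1.45 CPM in double colored libraries, with no overlap. The 1 tested, Csf3r, had an LFC of 1.26 (edgeR adjusted p = 0.103, unadjusted p under 0.05) and passed with DESeq2. Of the others, S100a9 had 82 reads in all single and 15 in all double colored libraries, S100a8 23 and 4, Mmp8 29 and 3, Retnlg 24 and 0, and Ly6g 0 in both. The part of these cell type markers in the values of the lysosome genes was not tested.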

How the data were processed

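Per the labels, the 4 single and 4 double colored libraries were made from RNA purified with the miRNeasy Micro Kit and with the Ovation RNA-seq System v2 Kit. The submitters' processing notes name STAR 2.5.2b, featureCounts of Subread and the build mm9. Whether counting used strand is not stated in these sources. The deposited values are raw read counts, whole and not estimated counts, so nothing was rounded. Feature lengths in base pairs, taken as deposited, gave RPKM. The deposited log2 fold changes, p-values and FDR values come from a test that no source used here names. A further 24 deposited columns of CPM and FPKM were not used.

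A reference table of Ensembl identifiers and symbols matched 32919 of 37991 identifiers. Genes were kept by filterByExpr (minimum count 10), scaled by TMM and tested with the robust quasi-likelihood F-test of edgeR 4.0.16 in R 4.3.3, with Benjamini-Hochberg adjustment over 12466 genes. The sign of each log2 fold change is that of single relative to double colored cells, and standard errors derive from the F statistic. Log2 CPM used a prior count of 2. The fit was also run on counts simulated from its own dispersions. These had no likeness between same-numbered libraries, so that run cannot show whether a fit without a block suits these data. Exon overlaps used GenomicRanges 1.54.1, in mm9.

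The members and lists were chosen with earlier results of these data known. Named genes are the 10 members, up to 4 genes with the smallest p in each of 8 lysosome lists, and the 5 most like Ctss outside predicted genes, small RNAs and members. Further genes (all markers, Ctsw, Ctsg, Cst7) were named after their values were seen. Alternatives were DESeq2 1.42.0, other scaling and filters, no mitochondrial genes, the replicate block, and each library left out. After subtraction of group means, libraries sharing a number correlated at 0.257, 0.126, 0.136 and 0.139 (numbers 1 to 4). All exceed 0.1, the value set for treating numbers as pairs, while the highest correlation between different numbers was 0.108. The labels state no pairing, so the main fit has no block, and its p-values and calls ignore this likeness of same-numbered libraries. With the block 619 genes rose and 320 fell, against 289 and 20 in the main fit.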

Additional observations from a re-analysis of the deposited data

Results flagged for a closer look

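Among 60 member or named genes, 120 groups of 4 libraries were examined for a library far from the other 3, measured as its gap to the nearest over the range of the group, and set against Dixon's critical value. Chance alone gives about 1 in 20, and 4 groups passed. Ctsc stood at 40.85 CPM in single colored replicate 1 and at 21.43 to 24.5 CPM in the other single colored libraries. Mpeg1 stood at 49.37 CPM in the same library and at 24.33 to 27.89 CPM in the others of that group. Tfec stood at 0.7956 CPM in double colored replicate 1 and at 0.04321 to 0.09089 CPM in the other double colored libraries. Cd4 stood at 1.383 CPM in double colored replicate 3 and at 0.2094 to 0.409 CPM in the others of that group.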

How the results depend on the processing

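Of 12466 tested genes 309 passed the threshold, against 557 with DESeq2, 1390 with scaling by library totals alone, 805 with no filter, 97 with the filter at 5 CPM and 939 with the replicate block. The 12 calls over the 8 lysosome lists became 38 with scaling by totals and 6 with the filter at 5 CPM, and were 16 with the replicate block. The 13 calls over the 7 marker lists became 25 with scaling by totals, 24 with no filter, 4 with the filter at 5 CPM and 25 with the replicate block. Leaving out each library in turn gave 134 to 304 genes, 2 to 12 lysosome calls and 7 to 11 marker calls. Scaling by totals shifts the median of all genes by 0.49, and the filters change the genes tested. The cause of the other changes was not tested. Cpq changed sign, to 0.36, with scaling by totals alone. Over all 14 alternatives Ctss lay between 2.13 and 2.83 and Ctsz between 0.98 and 1.62, and Cst3 was negative in all but scaling by totals. With the replicate block Gm2a and Gusb passed, and the 4 class II calls were kept. H2-Ab1, the class II gene with the smallest p in the main fit, had an edgeR adjusted p of 0.0354 with the block. H2-Aa had 0.0131, Ifi30 0.00264 and Cd74 0.000540. Tfec also passed, but it entered the test through the single colored group, so its call supports nothing. Depth limits Ctsk, at 13 to 83 reads per library, and the cystatins outside the fit.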
